A study of Mus musculus with 6 samples.

Results

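The Ifi200 (PYHIN) family is a group of interferon-inducible genes that lie side by side on mouse chromosome 1. Its members were taken by name, as the rows of the expression table whose Entrez ID belongs to Ifi203, Ifi204, Ifi207, Ifi208, Ifi209, Ifi211, Ifi213, Mnda, Mndal or Aim2. The 10 names stand for 9 mouse genes, because RefSeq lists Mnda as another name of Ifi211. Of these 9 genes, 6 have a row among the 13426 rows of the table, namely Aim2, Ifi203, Ifi208, Ifi209, Ifi213 and Mndal. Ifi204, Ifi207 and Ifi211 have no row in the table analysed here. Ifi214, a PYHIN gene of the same cluster that is not among the named members, also has a row and is described beside them, which brings the PYHIN genes with values to 7.

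The study asked what becomes of early B cell development without UPF1, an RNA helicase of nonsense-mediated mRNA decay (NMD) and other mRNA decay pathways. RNA was sequenced from early large pre-B (LPre-B) cells of the bone marrow in 2 groups of 3 libraries each. The Ctrl mice were Upf1 Flox/Flox and Mb1 +/+, and the Upf1-cKO mice were Upf1 Flox/Flox and Mb1 Cre/+, so that floxed Upf1 alleles were carried by both groups and Cre by the Upf1-cKO group alone. Mb1 is Cd79a, a gene of the B lineage, and Cre replaces one of its copies, so deletion of Upf1 and loss of a Cd79a copy cannot be told apart here. Adult, age-matched mice of both sexes on a C57BL/6 background were used, and the cells were sorted as lineage-negative, B220+, surface IgM-, CD43+, large and CD2-. The study calls its replicates biological and independent, and whether a library held cells of a single mouse or of several is not given in the sources used here.

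PYHIN proteins join a pyrin domain, which pairs with other pyrin domains, to a HIN domain, which binds DNA, and some members hold only one of the pair. AIM2 senses double-stranded DNA in the cytosol and assembles an inflammasome through the adaptor ASC and caspase-1. The p200 proteins of the remaining members act mostly in the nucleus and in cytosolic DNA sensing, and are known for effects on transcription and proliferation. Interferons act on their target genes through transcription factor complexes, some of which bind the interferon-stimulated response element, whose core is a pair of GAAA blocks, and others a GAS element.

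The promoters of the cluster carried this pair of GAAA blocks in an almost fixed form. RefSeq promoters of build GRCm38.p6, each of 250 bases before and 50 after a transcription start site, were searched on both strands for the double GAAA pattern, that is GAAA, NN for any pair of bases, and GAAA. Of the 7 PYHIN genes with a row, 5 had a match, and in all 5 a match read GAAATCGAAA. A further start site of Mndal had another form of it, and a further start site of Ifi203 had no match. A match was present in 3.99% of the 27025 genes with a promoter entry. The exact form GAAATCGAAA, searched after the promoters had been seen and itself a case of the double GAAA pattern, was found in 16 of those 27025 genes, of which 7 were PYHIN genes, with Ifi206 and Ifi207 beside the 5 that have a row. The windows below show the element in capitals with its flanks, read 5′ to 3′ on the strand of the gene. The last line is the stretch of Ifi209 that aligns with the Ifi214 window.
Mndal, chr1:173880210-173880229, minus strand: gctgggGAAATCGAAAgcta
Ifi203, chr1:173942514-173942533, minus strand: gctgggGAAATCGAAAgcta
Ifi214, chr1:173536023-173536042, minus strand: tctgagGAAATCGAAAgcga
Ifi213, chr1:173599332-173599351, minus strand: tctgagGAAATCGAAAgcta
Ifi208, chr1:173673601-173673620, plus strand: tctgagGAAATCGAAAgcta
Ifi209, chr1:173630774-173630793, plus strand: tctgagTAAATCGAAAgaga

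Ifi209 lacked the element, although its promoter is nearly the same sequence as that of Ifi214. Over the whole promoter, 287 of 299 aligned bases were identical, or 96.0%. Within the 20-base window, 2 bases differed from Ifi214, G7T and C18A, counted from 1 at the 5′ end of the window. The first of them fell inside the element, where it is G1T counted from the 5′ end of the element, and it removed the match to the double GAAA pattern. Ifi209 had no other match in its promoter, and Aim2 had none either. The only promoter entry of Aim2 begins at chr1:173420354, inside the span of the gene, so no promoter at the start of that span was searched. The GAS pattern TTCNNNGAA was found in the promoter of 0 of the 7 PYHIN genes with a row and in 9.55% of all genes with a promoter entry. To show the likeness of this pair, the 250 bases before each start site are given with the aligned 10 bases in capitals.
Ifi214, chr1:173535958-173536207, minus strand: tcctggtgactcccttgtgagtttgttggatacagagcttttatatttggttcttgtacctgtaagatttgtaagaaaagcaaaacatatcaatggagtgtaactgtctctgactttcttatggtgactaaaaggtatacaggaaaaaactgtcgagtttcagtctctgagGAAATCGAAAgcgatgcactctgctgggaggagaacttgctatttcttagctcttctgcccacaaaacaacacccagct
Ifi209, chr1:173630609-173630858, plus strand: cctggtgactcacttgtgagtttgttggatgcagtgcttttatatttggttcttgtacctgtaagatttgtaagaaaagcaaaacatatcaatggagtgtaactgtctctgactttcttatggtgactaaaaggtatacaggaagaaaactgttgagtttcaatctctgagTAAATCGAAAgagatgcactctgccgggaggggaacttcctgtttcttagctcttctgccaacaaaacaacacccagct

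Other sequence was shared as well, and it bears on how surely reads can be given to 1 gene. In GENCODE M21 transcripts, 33.4% of the 50-base windows of Ifi209 were also found in Ifi214, and 14.5% of the windows of Ifi214 were found in Ifi209. The share of windows found in any other gene was 20.9% for Ifi208, 19.6% for Mndal, 15.6% for Ifi213, 12.3% for Ifi203 and 0.742% for Aim2. With windows of 75 bases these shares were 11.8%, 11.1%, 8.07%, 5.71% and 0%. Read length is not given in the sources used here. How reads that match more than 1 place were counted is not given in the sources used here, so the values of Ifi209, Ifi214, Ifi208, Ifi213, Mndal and Ifi203 are uncertain. The annotated exons of Mndal and Ifi203 overlap by 37 bases.

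The family did not move as one. Of the 6 members with a row, 3 were higher in Upf1-cKO cells (Aim2, Mndal and Ifi203), 1 was lower (Ifi209) and 2 did not pass the test (Ifi208 and Ifi213), by limma with p-values adjusted over all 13426 genes and a threshold of 0.05. Over all genes, 27.7% were called higher and 25.0% lower, and 52.7% in either direction, so 4 called of 6 is not far from that background. The median log2 fold change was 0.07 over the 6 members, with a range from -0.38 to 0.63, and 0.01 over all genes. In 4 of the 6 members the values of the groups did not overlap, 3 of them higher and 1 lower in Upf1-cKO cells, against 58.8% of all genes (30.9% higher and 28.0% lower). Values are given as normalised reads, that is reads per 1000000 of the effective library size, and fold changes are on the scale of log2(value + 1).

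**Figure D1:**
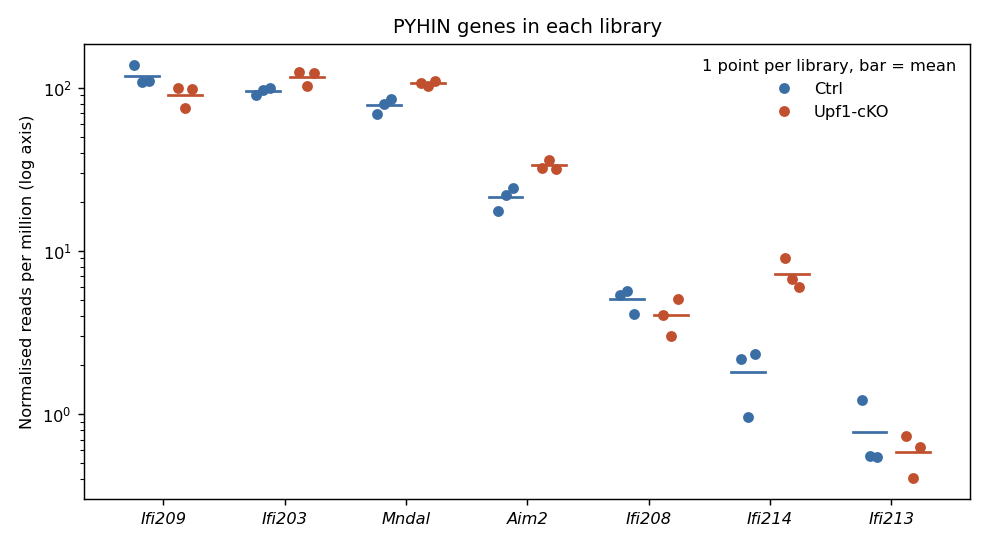
Normalised reads on a log axis for the 7 PYHIN genes with a row, with 1 point per library (3 Ctrl in blue, 3 Upf1-cKO in red) and a bar at the mean of each group. All 3 Upf1-cKO libraries lie above all 3 Ctrl libraries for Ifi203, Mndal, Aim2 and Ifi214, and below them for Ifi209, while the groups overlap for Ifi208 and Ifi213.

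Aim2 (Entrez 383619, chr1:173349547-173466040), the DNA sensor of the family, rose the most among the members. It was at 17.6, 22.0 and 24.4 in the Ctrl libraries and at 32.4, 36.0 and 31.7 in the Upf1-cKO libraries. The lowest Upf1-cKO library thus lay above the highest Ctrl library. The means were 21.3 ± 3.45 and 33.4 ± 2.29 (SD, n = 3 each), a rise of 0.63 on the log2 scale (SE 0.126, limma adjusted p = 0.000332) or 1.57-fold in the means. Behind these values stood 165 to 399 reads per library. Aim2 was past the threshold under each of the 16 other settings tried, with log2 fold changes from 0.51 to 0.83.

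Mndal (Entrez 100040462, chr1:173857215-173880382), which codes for a p200 protein related to the human myeloid nuclear differentiation antigen, was also higher. Its values were 69.5, 79.9 and 85.2 in Ctrl and 107, 103 and 111 in Upf1-cKO libraries, without overlap. The means were 78.2 ± 7.99 and 106.8 ± 4.0 (SD, n = 3 each). The log2 fold change was 0.45 (SE 0.0886, limma adjusted p = 0.000326), and it was past the threshold under each of the 16 other settings.

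Ifi203 (Entrez 15950, chr1:173920400-173942866), a p200 gene at the far end of the cluster, differed less. It stood at 90.6, 97.0 and 99.2 in Ctrl libraries against 125.2, 102.8 and 123.4 in Upf1-cKO libraries. The groups did not overlap, but Upf1-cKO replicate 2 was close to the highest Ctrl library. The log2 fold change was 0.29 (SE 0.0888, limma adjusted p = 0.0112). The call was lost without Upf1-cKO replicate 1 (adjusted p = 0.0793), without Upf1-cKO replicate 3 (adjusted p = 0.0704), with each library centred on its median (log2 fold change 0.18, adjusted p = 0.0932) and with eBayes without trend or robust estimation (adjusted p = 0.0631).

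Ifi209 (Entrez 236312, chr1:173630859-173647928), another p200 gene, went the other way. Ctrl libraries held 138, 108 and 109 and Upf1-cKO libraries 99.3, 75.2 and 97.7. Every Upf1-cKO library lay below every Ctrl library, and Ctrl replicate 1 and Upf1-cKO replicate 2 stood at the ends. The mean fell from 118.7 ± 17.2 to 90.8 ± 13.5 (SD, n = 3 each), with a log2 fold change of -0.38 (SE 0.115, limma adjusted p = 0.0108). It was no longer called without Upf1-cKO replicate 2 (-0.26, adjusted p = 0.0739), with libraries scaled to total reads (-0.18, adjusted p = 0.198) or with eBayes without trend or robust estimation (adjusted p = 0.0696), and its sign was negative in all 16 other settings.

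Ifi208 and Ifi213, a pair whose promoters were identical at 282 of 285 aligned bases, were low in both groups. Ifi208 (Entrez 100033459, chr1:173673628-173698393) was at 5.36, 5.71 and 4.12 in Ctrl and 4.05, 3.02 and 5.10 in Upf1-cKO libraries, which overlap. Its log2 fold change was -0.27, with a 95% interval from -0.71 to 0.16 (limma adjusted p = 0.282). Ifi213 (Entrez 623121, chr1:173566280-173599348) stood at 1.22, 0.556 and 0.546 in Ctrl and 0.732, 0.406 and 0.632 in Upf1-cKO libraries, from 4 to 11 reads in each. Its log2 fold change was -0.14, with an interval from -0.62 to 0.33 (adjusted p = 0.623), and its sign turned without Ctrl replicate 1 (0.030). Neither gene passed the test in either direction, which does not show that they did not differ, and both carry the GAAATCGAAA element shown above.

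Ifi214 (Entrez 545384, chr1:173521311-173535957), outside the named members, showed the largest difference of the 7 PYHIN genes. Its values were 2.18, 0.960 and 2.33 in Ctrl and 9.03, 6.72 and 6.03 in Upf1-cKO libraries, from 20, 9 and 23 reads in Ctrl and 92, 74 and 71 in Upf1-cKO. The groups were far apart, with no overlap. The log2 fold change was 1.57 (SE 0.233, limma adjusted p = 1.67e-05), the ratio of the means was 3.98, and edgeR on the recovered reads, which has no pseudocount of 1, gave 2.01. It was past the threshold in all 16 other settings. Ifi214 and Ifi209, whose promoters are printed above, thus moved in opposite directions: the within-library ratio of Ifi214 to Ifi209 was 0.0157, 0.00887 and 0.0213 in Ctrl and 0.0909, 0.0893 and 0.0617 in Upf1-cKO libraries. This ratio does not depend on how libraries were scaled, but it was picked out after the values had been seen. Its exact two-sided permutation p was 0.1, the smallest that 3 libraries against 3 can give, or 0.12 adjusted over the 6 ratios computed between PYHIN genes.

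**Figure D2:**
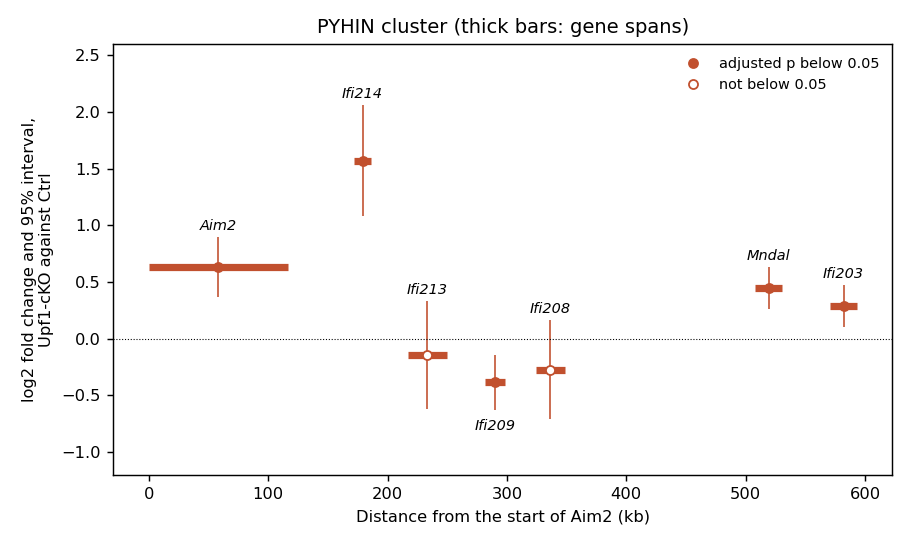
Log2 fold change (vertical axis, with 95% intervals from limma) of the 7 PYHIN genes by distance in kb from the start of Aim2 (horizontal axis), with thick bars over the gene spans. Filled points passed an adjusted p of 0.05, and the cluster holds genes that rose, fell and did not pass, with Ifi214 the highest at 1.57.

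Genes that rose and a gene that fell lay within the same cluster, as the map of fold changes shows. The members with a row span 593.3 kb. Going along the chromosome, Aim2 and Ifi214 were higher, Ifi213 and Ifi208 did not pass and Ifi209 between them was lower, and Mndal and Ifi203 at the far end were higher. The 3 genes with a log2 fold change below 0 thus lay next to each other among the genes with a row, which is a description with no test. Among the 8 other genes with a row within 1000000 bases of the cluster, 0 were higher by limma, also at an unadjusted p below 0.05, and 4 were lower (2 with libraries scaled to total reads), with a median log2 fold change of -0.44, beside 27.7% higher and 25.0% lower over all genes. Those before the cluster included Dusp23 (717 kb away, -0.20, adjusted p = 0.428), Cfap45 (804 kb, 0.15, adjusted p = 0.60) and Tagln2 (842 kb, -0.51, adjusted p = 0.000181). Fmn2 (559 kb, -1.68, adjusted p = 1.56e-07) lay after it. None of these named genes adjoins the cluster.

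The order of the members by level differed between the groups and depended on the length used. Per kilobase of all annotated exons of a gene joined, Ifi209 had the highest level of the family in Ctrl cells at 33.5 ± 4.84 normalised reads per kb, followed by Mndal at 21.6 ± 2.20, Ifi203 at 14.3 ± 0.668, Aim2 at 6.09 ± 0.985, Ifi208 at 0.963 ± 0.159, Ifi214 at 0.225 ± 0.0928 and Ifi213 at 0.113 ± 0.0566 (SD, n = 3 each). The libraries of neighbours in this order did not overlap, except those of Ifi214 and Ifi213. In Upf1-cKO cells Mndal came first at 29.4 ± 1.10, above Ifi209 at 25.6 ± 3.8 in each of 3 libraries, and then Ifi203 at 17.5 ± 1.85 and Aim2 at 9.54 ± 0.655. Ifi214 at 0.895 ± 0.194 reached the range of Ifi208 at 0.772 ± 0.198, and Ifi213 remained last at 0.0862 ± 0.0244. Exon lengths ranged from 3501 bases for Aim2 to 8107 for Ifi214. Per kilobase of the longest annotated transcript, a length added after the data had been seen (2026 bases for Mndal against 3628 of joined exons, and 3439 against 3547 for Ifi209), Mndal came first by mean in both groups. It then stood at 38.6 ± 3.94 in Ctrl, above Ifi209 at 34.5 ± 4.99 in 2 of 3 libraries, and at 52.7 ± 1.97 in Upf1-cKO cells (SD, n = 3 each). Ifi203 by this length was below Ifi209 in each Ctrl library (mean 25.5 ± 1.19) and above it in each Upf1-cKO library (31.2 ± 3.31 against 26.4 ± 3.91). Ifi209 was thus a place lower in Upf1-cKO than in Ctrl cells by either length, but which gene led in Ctrl cells differed between them.

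**Figure D3:**
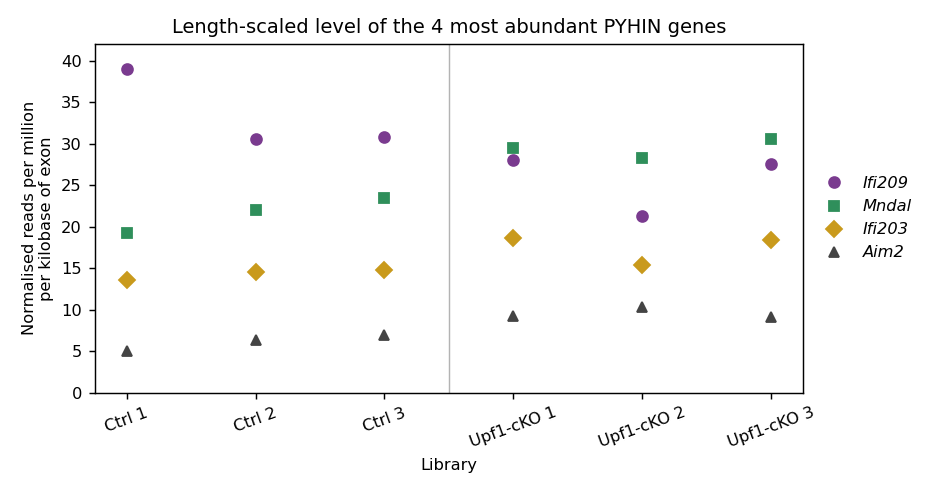
Level of Ifi209, Mndal, Ifi203 and Aim2 in each library (horizontal axis) in normalised reads per kilobase of joined annotated exons (vertical axis, from 0), with 1 symbol per gene. By this length Ifi209 is the highest in the 3 Ctrl libraries and Mndal in the 3 Upf1-cKO libraries, while by the longest transcript Mndal has the higher mean in both groups.

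The ratio of Ifi209 to Mndal within a library, which no scaling can move, was 1.99, 1.35 and 1.28 in Ctrl and 0.929, 0.732 and 0.883 in Upf1-cKO libraries, without overlap (exact two-sided permutation p = 0.1, the smallest possible here, and 0.12 adjusted over the same 6 ratios). As a share of the summed level of the 6 members, Ifi209 took 37.1% ± 5.04 in Ctrl and 25.6% ± 1.87 in Upf1-cKO libraries, while Mndal took 24.5% ± 2.58 and 30.4% ± 1.57, and Aim2 6.67% ± 1.09 and 9.55% ± 1.48 (SD, n = 3 each). The summed level itself overlapped between the groups, at 323, 313 and 323 in Ctrl and 369, 320.2 and 369 in Upf1-cKO libraries. The log2 ratio of the sums was 0.14, and it was 0.033 with each library centred on its median and 0.34 with libraries scaled to total reads. These shares and sums are descriptions with no test, since the members were chosen with results known.

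Beside other interferon-inducible families the members moved little. Of the guanylate-binding proteins and immunity-related GTPases, which attack vacuoles of intracellular pathogens, 14 of 14 with a row rose (median log2 fold change 1.48), with Gbp6 at 2.72, Iigp1 at 2.57 and Gbp2 at 2.44. Of the OAS family, whose members make the activator of RNase L from double-stranded RNA, 7 of 8 rose (median 2.0), with Oas3 at 2.71, Oasl1 at 2.47 and Oas2 at 2.42. Of the IFIT, MX and other antiviral effectors, 18 of 20 rose (median 0.95), with Mx2 at 4.37, Ifi44 at 3.09 and Mx1 at 2.47. The lowest log2 fold change in these 3 lists was 0.23, of Ifit2, which did not pass the test and is named here after its value had been seen. Aim2 at 0.63, the highest of the 6 members, lay below all of these medians, and Ifi214 at 1.57 lay between those of the IFIT and OAS lists. Whether the families differ was not tested. Every row of the table exceeds 0.5 in at least 3 libraries. Ifit1, Ifit1bl2, Ifitm1, Oas1g and Tgtp1, named here for this filter, were below 0.5 in each Ctrl library. They have a row only through Upf1-cKO and could appear only as higher, so they add no support to the counts and medians above. Over all genes, 27.7% were called higher.

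**Figure D4:**
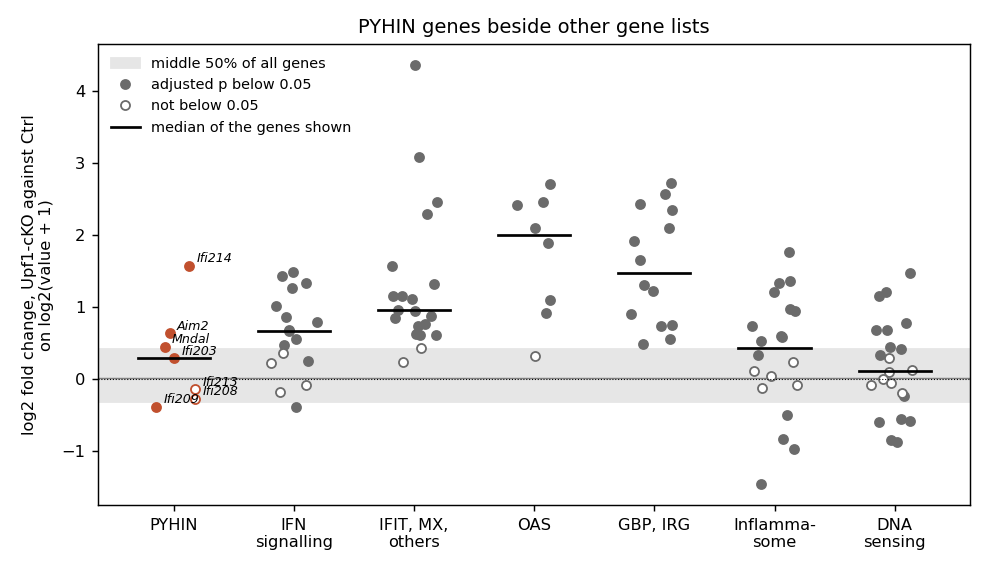
Log2 fold change (vertical axis) of each gene with a row, by list (horizontal axis), filled where the limma adjusted p was below 0.05, with a black bar at the median of the list and a grey band over the middle 50% of all genes. The 7 PYHIN genes (red, median 0.29 with Ifi214 included) spread from -0.38 to 1.57, while the OAS and GBP and IRG genes lie above 0.

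The double GAAA pattern was present in those families too, in 9 of 9 genes with a promoter entry among the guanylate-binding proteins and immunity-related GTPases, 4 of 6 of the OAS family and 10 of 16 of the IFIT and MX list, beside 5 of the 7 PYHIN genes. The form GAAATCGAAA was in 0 of the 9, 0 of the 6 and 0 of the 16. Of the 5 PYHIN genes that hold a match, Ifi214, Mndal and Ifi203 rose and Ifi208 and Ifi213 did not pass the test, and of the pair without it Aim2 rose and Ifi209 fell. Whether a match goes with direction was not tested. These are matches of letters in a reference and not measured binding.

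Most measured genes of interferon signalling were higher, activators and inhibitors among them. Over all genes, 27.7% were higher and 25.0% lower. Of 17 receptors, kinases, STATs, IRFs and inhibitors of interferon signalling with a row, 12 rose, 1 fell and 4 did not pass the test (median 0.67). The largest by size were Socs3, an inhibitor of JAK kinases, at 1.48, Irf7, a driver of interferon genes, at 1.43 and Ifngr2, a chain of the interferon gamma receptor, at 1.34. Stat2 and Irf9, transcription factors of this route picked here for their role after the values had been seen, rose by 1.26 and 1.01. The others named here after their values had been seen are Jak1, a kinase of interferon receptors, which fell by 0.39 on the log2 scale (limma adjusted p = 0.000271), and those that did not pass, Socs1 at 0.37, Ifngr1 at 0.22, Irf8 at -0.08 and Irf2 at -0.18.

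Of 20 genes with a row in a list of AIM2 partners and other inflammasome genes, 11 rose and 4 fell (median 0.43), beside 27.7% higher and 25.0% lower over all genes. Nlrp12, counted among those that rose and named here for the row filter, was below 0.5 in each Ctrl library. It has a row only through Upf1-cKO and could appear only as higher. Casp4, the caspase that senses lipopolysaccharide, was higher by 1.77 and Pstpip1, a cytoskeletal adaptor that binds pyrin, by 1.36. Pycard, which codes for ASC, the adaptor that links AIM2 to caspase-1, fell by 1.47 on the log2 scale, from a mean of 49.96 to 17.5 (SE 0.118). Casp1 rose by 0.60 and Gsdmd, the pore-forming substrate, by 0.33, and Il18, a cytokine that caspase-1 matures, fell by 0.98 (these 3 were named after their values had been seen). AIM2 and caspase-1 transcripts were thus higher, and those of the adaptor between them lower, in the same libraries.

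Of 22 genes of cytosolic DNA sensing and nucleases, 9 were higher (8 to 12 over the other settings) and 6 lower (median 0.11), beside 27.7% higher and 25.0% lower over all genes, so the lower count is near the background. Cgas, the enzyme that makes cyclic GMP-AMP on DNA, rose by 1.47, Ikbke, a kinase of IRF3 and IRF7, by 1.21 and Zbp1, a sensor of Z-form nucleic acids, by 1.15. Among the 6 lower, named after their values had been seen, were Tlr9 (-0.88), Samhd1 (-0.85) and Sting1 (-0.60, limma adjusted p = 0.00166). Of 10 genes whose proteins are reported to bind p200 proteins, 1 rose and 5 fell (median -0.20). E2f1, an activator of S-phase genes, fell by 1.25 and Rb1, its inhibitor, fell by 0.77, while Id1, an inhibitor of E proteins, was higher by 0.68 from 1 to 15 reads per library. The single rise in this last list was lost in 5 of the alternatives. Every row of the table exceeds 0.5 in at least 3 libraries, and Id1 was below 0.5 in each Ctrl library. Id1 thus has a row only through Upf1-cKO and could appear only as higher.

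NMD removes transcripts with a stop codon that the machinery reads as premature, and the annotation of the members was read for such transcripts. Of the 6 members with a row, GENCODE M21 marks an NMD transcript in Ifi209 (1 of 2) and in Mndal (1 of 10), and none in Aim2, Ifi203, Ifi208 and Ifi213. Ifi214 has 2 of 4. Over the 12155 genes of the table matched to GENCODE, 28.9% have at least 1. The carriers did not share a direction, since Ifi209 fell and Mndal and Ifi214 rose. The table gives 1 value per gene, so transcripts of a gene cannot be told apart.

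The 5 genes outside the members whose values were most like the mean log2 value of the members over the 6 libraries were Vmn1r32 (Pearson r = 0.94), Rras (0.93), Marveld1 (0.91), Dach1 (0.89) and Mfsd6l (0.87), out of 2240 genes with an SD of at least 0.5. These r values describe 6 libraries in 2 groups and carry no test. All 5 were higher in Upf1-cKO cells by limma, with log2 fold changes from 0.67 to 0.98. The mean of the members itself overlapped between the groups, at 4.64, 4.60 and 4.59 in Ctrl and 4.76, 4.56 and 4.79 in Upf1-cKO libraries. The 5 genes were picked from these same values, so their rise is no support for a rise of the members.

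Facts of the whole series that touch these values are as follows. The reads recovered over the rows of the table summed to 9732498 to 11006834 per library. Upf1 itself was at 260, 203 and 259 in Ctrl and 308, 283 and 299.7 in Upf1-cKO libraries (log2 fold change 0.31, limma adjusted p = 0.00696), and since this row sums the whole gene and does not separate the deleted exons, it does not check the labels. B lineage markers were present in each library, 13 of 13 with a row, with summed levels of 2737 to 3034 in Ctrl and 3186 to 3440 in Upf1-cKO. They were led by Dntt (1.64), Cd79a (-1.58) and Rag1 (1.55), 3 genes of B cell receptor assembly and signalling. Of all genes, 3725 were higher and 3351 lower, and this split was 5172 to 1936 with libraries scaled to total reads and 2992 to 4355 with libraries centred on their medians. These scalings moved the median of all genes from 0.01 to 0.19 and to -0.10.

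Markers of other cells moved with the groups, and the counts below stand beside 27.7% higher and 25.0% lower over all genes by limma. Of 13 neutrophil markers, 8 were higher and 0 lower by limma, and 5 higher and 0 lower by edgeR, led by Ltf (3.96), S100a9 (3.83) and S100a8 (3.20), with summed levels of 147, 22.8 and 17.0 in Ctrl and 539, 407 and 384 in Upf1-cKO libraries. The lineage gate of the sort held CD11b, which neutrophils carry. Ctrl replicate 1, with the highest neutrophil sum of its group, had the lowest Aim2, Mndal and Ifi203 and the highest Ifi209 of the 3 Ctrl libraries, and without it these 4 genes were still called. Leaving it out keeps only the lower Ctrl neutrophil sums (22.8 and 17.0), so this step cannot test a part of neutrophil RNA in the calls. Of 16 monocyte and macrophage markers 10 had a row, 1 higher (Lyz2, 0.76) and 3 lower (F13a1 at -0.93 and Vcan at -0.69 the first by size, then Itgam, named after its value had been seen), with summed levels of 119 to 169 in Ctrl and 120.0 to 155 in Upf1-cKO. Dendritic cell markers had 5 of 8 rows, 2 of them higher, at sums of 4.02 to 6.53 and 6.70 to 7.98. T and NK cell markers had 2 of 12 rows, 1 higher, at sums of 1.17 to 1.59 and 3.79 to 5.27. Erythroid markers had 6 of 10 rows, 1 lower, at 21.4 to 26.1 and 14.2 to 20.3, and mature B and plasma cell markers 7 of 7, 3 higher and 2 lower, at 51.3 to 69.2 and 54.6 to 55.8. Jchain, a plasma cell marker counted as lower, was below 0.5 in each Upf1-cKO library. It passed the row filter only through Ctrl. The part of these cells in the PYHIN values was not tested. In these bulk libraries, fewer cells of a type and less RNA per cell cannot be told apart.

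**Figure D5:**
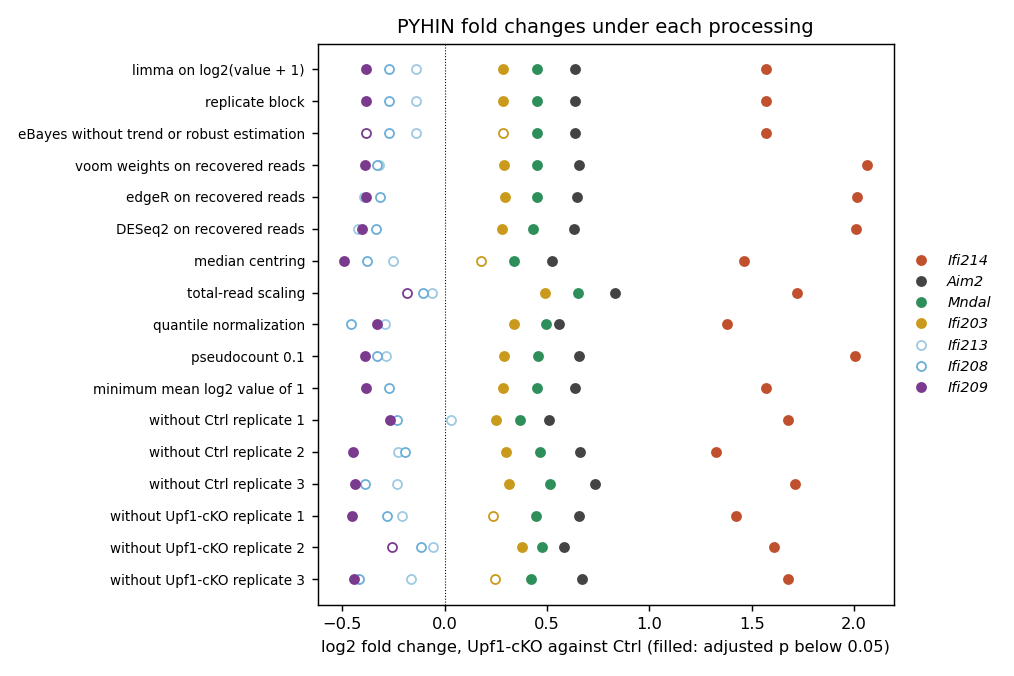
Log2 fold change (horizontal axis) of the 7 PYHIN genes under the limma fit on log2(value + 1) and each of 16 other settings (vertical axis), filled where the adjusted p was below 0.05. Ifi214, Aim2 and Mndal are filled in each row where they appear, and Ifi203 and Ifi209 are open in 4 and 3 of the 16.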

How the data were processed

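RNA-seq was carried out on early LPre-B cells of 3 Ctrl and 3 Upf1-cKO samples, grouped by their titles. The methods and the submitters' processing notes name depletion of ribosomal RNA, a directional kit, single-end reads, cutadapt 4.0, unstranded alignment to mm10 by HISAT2, featureCounts 2.0.1 and, for the comparison, limma 3.48.0. The authors deposited a linear signal per Entrez ID. Its steps show that 0.5 was added to each read count before scaling to 1000000 reads of effective library size. From it whole reads were recovered for 100% of values within 0.1 of a step. Every row exceeds 0.5 in at least 3 libraries. Because strand was not used, overlapping genes cannot be separated.

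Groups were compared by limma 3.58.1 (R 4.3.3) on log2(value + 1) with no covariate. Its eBayes step used trend and robust estimation, and p-values of the 13426 genes were adjusted together by Benjamini-Hochberg. The fits were tested on simulated data. The settings varied were plain eBayes without trend or robust estimation, the replicate block, voom, edgeR 4.0.16 and DESeq2 1.42.0 on recovered reads, median centring, total-read scaling, quantile normalization, a pseudocount of 0.1, a minimum mean log2 value of 1 and leaving out each library. The length of the longest transcript was added after seeing the data. Symbols and gene positions came from RefSeq (GRCm38.p6), exon lengths and shared windows from GENCODE M21, and promoters from RefSeq. Protein sequences were not used here.

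The members and gene lists were chosen with earlier results of these data known. Named genes were all members, Upf1, at most 3 genes of each list by size among those past the threshold, at most 3 neighbours on each side, and the 5 genes most like the mean of the members. Genes named outside this rule are said to be. Some genes that this rule names are not reported here.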

Additional observations from a re-analysis of the deposited data

How the results depend on the processing

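Over 16 other settings, Aim2, Mndal and Ifi214 kept their direction and stayed past the threshold in each, and 3 or 2 members were called higher. The count of members called lower went from 1 to 0 with eBayes without trend or robust estimation, with total-read scaling and without Upf1-cKO replicate 2, and ranged from 0 to 1 when 1 library was left out. Ifi213 had a log2 fold change of 0.030 without Ctrl replicate 1, against -0.14 with all libraries, and from -0.23 to 0.030 when 1 library was left out, and has no value with a minimum mean log2 value of 1. Upf1 was not called with eBayes without trend or robust estimation (0.31) or median centring (0.20). Total-read scaling gave 1936 lower genes, a summed member level higher by 0.34 on the log2 scale, 2 neighbours lower, 0 interferon signalling genes lower, and 3 higher and 3 lower p200 partners. Interferon signalling genes lower numbered 2 with median centring and with DESeq2, and 1 to 2 when a library was left out. Higher p200 partners numbered 0 with quantile normalization and with a minimum mean log2 value of 1, and 0 to 1 when a library was left out, and lower ones 3 with quantile normalization and 3 to 6 when a library was left out. Per kilobase, the log2 ratio of Ifi209 to Mndal in Ctrl cells was 0.63 by joined exons and -0.16 by the longest transcript, and in Upf1-cKO cells -0.20 and -1.0. The cause of the other moves was not tested. Whether the replicate numbers pair the samples is not given in the sources used here. The column names carry consecutive numbers for the Ctrl and Upf1-cKO libraries of equal replicate number. Deviations from the group means correlated at 0.0821, -0.0298 and -0.0208 for equal numbers and between -0.1074 and 0.1264 for unequal ones. Such weak correlations cannot show that the samples were handled without pairing. With the replicate block, 3668 genes were higher and 3321 lower, and 3 and 1 members. Ifi213 rested on at most 11 reads per library, and sequence shared within the family limits each PYHIN value other than that of Aim2.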
